A study of Mus musculus with 22 samples.

Results

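The genes described here are 46 genes of the cell division cycle and the E2F pathway, out of 39179 genes counted in each of 22 mouse RNA-seq samples. They were chosen by name, from a list of cell cycle genes, and all 46 were found by Ensembl identifier in every sample. By role they are 8 cyclins, 4 cyclin-dependent kinases (CDKs), 4 CDK inhibitors, 3 activator E2F genes, 5 repressor E2F genes, 3 pocket protein genes, 9 genes of DNA replication and 10 genes of mitosis. The samples were wild type (WT) or *Phf8* knockout (KO) embryonic stem cells (ESCs, 2 WT and 2 KO), neural progenitor cells (NPCs, 3 and 3), ventral striatum (STR, 3 and 3) and prefrontal cortex (PFC, 3 and 3). PHF8 is an X-linked histone demethylase reported to act at E2F1 target genes, and the KO cells and mice carry a germline allele that lacks exons 7 and 8 in every cell, made by Cre-mediated deletion in clones of male ESCs. The strain label of all 22 samples is B6x129SvJ. The ESCs came from blastocyst outgrowths kept on gelatin and feeder cells, the NPCs from late-gestation embryos grown as a monolayer, and the brain tissue from animals aged 2 months. The labels do not say whether replicates came from separate animals or derivations, so p-values measure the spread between these samples only. The study examined the growth of KO cells in culture and sequenced ESCs and NPCs to look for genes involved. The questions here are whether cell cycle genes differed with genotype, and how they stood between dividing cells and adult brain.

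In a dividing cell, D-type cyclins with CDK4 or CDK6 and E-type cyclins with CDK2 phosphorylate the pocket proteins RB1, RBL1 and RBL2, which otherwise hold E2F factors silent on their target genes. Released E2F1, E2F2 and E2F3 turn on genes of DNA replication, while E2F4 and E2F5 repress with the pocket proteins, E2F6 represses without them, and E2F7 and E2F8 are themselves induced and damp the wave. Genes of mitosis are transcribed later in the cycle, largely through the DREAM and MuvB complexes, and CDK inhibitors stop the kinases. Adult cortex and striatum consist mostly of neurons that have left the cycle, together with glia.

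Gene counts per sample summed to 5898286 at the lowest and 15539811 at the highest. *Phf8*, the deleted gene, had log2 fold changes of -1.79, -1.41, -1.37 and -1.37 (KO to WT) in ESCs, NPCs, STR and PFC, with no overlap between groups in any tissue and a call by edgeR in NPCs and PFC only (FDR 0.029 and 0.0019, against 1.0 in ESCs and 0.096 in STR). Reads of the exons that remain in the KO allele are included in those counts. Some libraries stood apart from others with the same label. In ESCs both libraries numbered 2 held 3669 and 4460 CPM (read counts scaled to a common library size) of 8 fibroblast markers, against 169 and 159 CPM in those numbered 1. In NPCs both libraries numbered 2 held 39.8 and 168 CPM of 4 oligodendrocyte markers, against 1364 to 2359 CPM in the other 4. KO STR library 1 held 127 CPM of 6 hypothalamic markers, against at most 16.8 CPM in the other STR libraries. The 4 cortical markers summed to 64.1 CPM in the lowest KO STR library and to 321 to 492 CPM in the other STR libraries. Markers of the cultured cells were present, with 8 ESC markers at 5084 to 6229 CPM in ESCs and 8 NPC markers at 3932 to 5739 CPM in NPCs. Exons of *Ccna2*, *Ccnd1*, *Ccnd2*, *Ccnd3*, *Ccne2*, *Cdk2*, *Cdk4*, *E2f5*, *E2f8*, *Rb1*, *Rbl2*, *Mcm7*, *Cdc20*, *Cdc25b* and *Cdc25c* overlap those of a gene on the other strand. Reads ambiguous between genes, 1.29% to 2.66% of the counting program's tallies in a sample, were counted for none. Counts of these members may therefore lack reads of shared exons or hold reads of the other gene. CPM values here are scaled by TMM (a scaling that equalizes the bulk of genes between libraries) over all 22 samples.

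**Figure D1:**
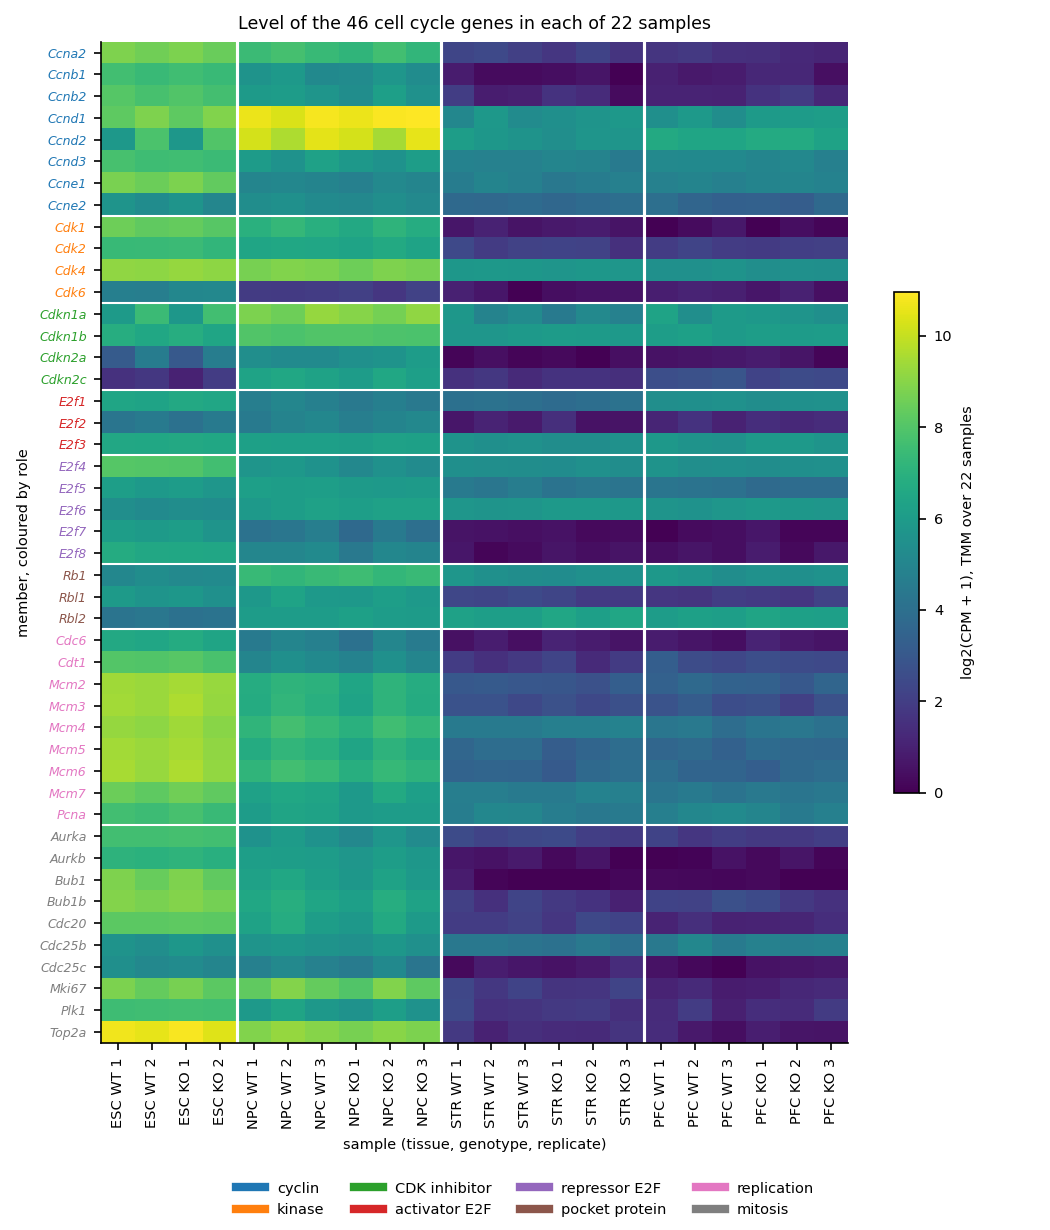
Level of each of the 46 genes (rows, coloured by role) in each of the 22 samples (columns), as log2(CPM + 1). Replication and mitosis genes are high in ESCs, lower in NPCs and close to 0 for many genes in STR and PFC, while *Ccnd1*, *Ccnd2* and the CDK inhibitors are high in NPCs.

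The summed level of the 46 genes fell stepwise from dividing cells to brain. It was 12035 ± 595 CPM (SD, n = 2) in WT ESCs, 7689 ± 409 CPM (SD, n = 3) in WT NPCs, 884 ± 33.7 CPM (SD, n = 3) in WT PFC and 782 ± 26.5 CPM (SD, n = 3) in WT STR. In KO samples the sums were 11914 ± 1330 CPM (n = 2), 7581 ± 568 CPM (n = 3), 884 ± 28.8 CPM (n = 3) and 767 ± 26.6 CPM (n = 3) in the same order. Each KO sum lay within 1 SD of the WT sum, but these sums mix roles. In NPCs the mitosis genes summed to 1435 ± 239 CPM in WT and 1254 ± 270 CPM in KO (SD, n = 3 each). The replication genes summed there to 938 ± 140.5 CPM in WT and 821 ± 180 CPM in KO. In ESCs the replication sum was instead higher in KO, at 4154.5 ± 681 CPM against 4096 ± 300 CPM (SD, n = 2 each). The 10 mitosis genes alone summed to 3511 and 3990 CPM in the WT ESC samples, to 1288 to 1711 CPM in WT NPCs, and to 34.2 to 45.6 CPM in all WT brain samples.

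WT NPCs were compared with WT ESCs to see how cycle genes differ between 2 kinds of dividing cells. In NPCs replication genes were lower throughout, most mitosis genes were lower, and cyclins D1 and D2, all 4 CDK inhibitors and 2 of the 3 pocket proteins were higher. A gene was called where its FDR (false discovery rate, adjusted over all genes tested by the Benjamini-Hochberg method) in edgeR's quasi-likelihood test was below 0.05. Of the members 9 rose and 30 fell, where 32.2% of all genes rose and 39.8% fell (72% in either direction). At an unadjusted p under 0.05 there were likewise 39 members, against 74% of genes, and the samples of both tissues did not overlap for 39 members (84.8%), against 78.4% of genes. The median log2 fold change was -1.47 over the members and -0.13 over all genes. DESeq2 called the same number, 39, and so did the KO samples used in place of the WT samples. Scaling by total counts in place of TMM moved the median of all genes by 0.11 on the log2 scale and left the counts at 9 and 30.

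Cyclins split by type. *Ccne1*, which partners CDK2 at the start of S phase, had 436 and 363 CPM in WT ESCs and 30.6, 32.8 and 30.2 CPM in WT NPCs, a fall by 3.72 on the log2 scale (log2 fold change -3.72, SE 0.12, FDR 1.2e-09 in the edgeR test). Its paralogue *Ccne2* was not called (log2 fold change -0.19, SE 0.18). *Ccnd1*, the D-type cyclin that answers growth signals, had 300.0 and 454 CPM in WT ESCs and 1300 to 1798 CPM in WT NPCs. *Ccnd2* had 56.4 and 234 CPM in WT ESCs and 775 to 1441 CPM in WT NPCs, and both rose (log2 fold changes 2.01 and 2.94). The third D-type gene, *Ccnd3*, fell (log2 fold change -1.74). *Ccna2*, *Ccnb1* and *Ccnb2*, cyclins of S phase and mitosis, fell with log2 fold changes of -1.25, -2.01 and -2.08. Among the kinases *Cdk6* fell most, by 3.25 on the log2 scale (log2 fold change -3.25), with 25.1 and 25.6 CPM in WT ESCs and 2.60 to 2.86 CPM in WT NPCs, and *Cdk4* fell least (log2 fold change -0.37), with no call when only these tissues were fitted (-0.21, FDR 0.091 in the edgeR test).

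CDK inhibitors all rose. *Cdkn2c*, which encodes the CDK4 and CDK6 inhibitor p18INK4c, had 1.93 and 2.42 CPM in WT ESCs and 78.6 to 90.3 CPM in WT NPCs, 36.6 times higher in the fit (log2 fold change 5.19, SE 0.21, FDR 4.6e-09 in the edgeR test). *Cdkn1b* (p27KIP1) rose from 92.1 and 113 CPM to 230 to 256 CPM (log2 fold change 1.21). *Cdkn1a* (p21) and *Cdkn2a* rose as well (log2 fold changes 1.94 and 1.23). *Cdkn2a* encodes both p16INK4a and p19ARF, which counts per gene cannot separate. Of the pocket proteins *Rb1* and *Rbl2* rose (log2 fold changes 2.10 and 1.79) and *Rbl1* was not called (0.17, SE 0.17).

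*Ccnd1*, *Ccnd2*, *Cdkn1a* and *Cdkn2a* were also the 4 members over 1.5 times higher in the ESC library numbered 2 than in that numbered 1 in both genotypes. *Ccnd2* was at 56.4 and 55.2 CPM in the libraries numbered 1 and at 234 and 251 CPM in those numbered 2. *Cdkn1a* was at 61.6 and 54.4 CPM against 176 and 202 CPM, and *Cdkn2a* at 7.94 and 7.39 CPM against 23.6 and 23.9 CPM. The fibroblast marker *Col1a1* was at 82.4 and 80.1 CPM against 1644 and 2011 CPM in the same libraries. Most other members showed the opposite, 35 of 46 being lower in the library numbered 2 in both genotypes. The part of the fibroblast markers in these levels was not tested. Without WT ESC library 2 the log2 fold changes from ESCs to NPCs were 2.34 (*Ccnd1*), 4.31 (*Ccnd2*), 2.89 (*Cdkn1a*) and 2.23 (*Cdkn2a*), in a fit where WT ESCs are 1 sample assumed to vary like the other groups.

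**Figure D2:**
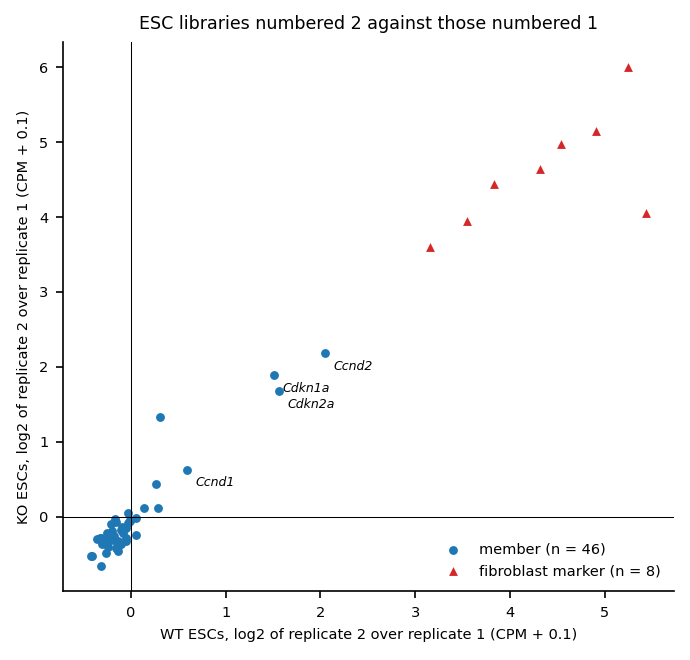
Log2 ratio of the ESC library numbered 2 to that numbered 1, in WT (x axis) and KO (y axis), for the 46 members and 8 fibroblast markers, on CPM + 0.1. All fibroblast markers lie above 3 on both axes, *Ccnd2*, *Cdkn1a* and *Cdkn2a* lie above 1.5 on both, and most members lie slightly below 0.

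The replication genes fell together. The 9 members, *Mcm2* to *Mcm7* of the replicative helicase, its loaders *Cdc6* and *Cdt1*, and the sliding clamp *Pcna*, were all lower in NPCs, with log2 fold changes between -2.85 (*Cdt1*) and -1.37 (*Pcna*). *Mcm3* had 703 and 638 CPM in WT ESCs and 106 to 148 CPM in WT NPCs. Among 40 further replication and E2F target genes 39 fell and 1 rose. *Hells*, a chromatin remodeller, fell from 989 to 92.1 CPM on average (log2 fold change -3.47) and *Dut*, a dUTPase, fell from 238 to 52.0 CPM (log2 fold change -2.24). The gene that rose was *Dck*, deoxycytidine kinase (log2 fold change 0.34). Of 10 mitosis genes 7 fell, *Bub1* of the spindle checkpoint by 2.36 on the log2 scale (log2 fold change -2.36). The proliferation marker *Mki67* did not pass the test, with 443 and 334 CPM in WT ESCs and 316, 490 and 331 CPM in WT NPCs (log2 fold change -0.08, SE 0.21). Neither did the phosphatase genes *Cdc25b* (0.13, SE 0.17) and *Cdc25c* (-0.43, SE 0.28). Of 42 further mitosis genes 40 fell and none rose in the same edgeR test, with *Mybl2*, which activates mitotic genes with MuvB, at 594 CPM in WT ESCs and 16.4 CPM in WT NPCs on average. Of 24 partners and inhibitors 4 rose and 18 fell.

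**Figure D3:**
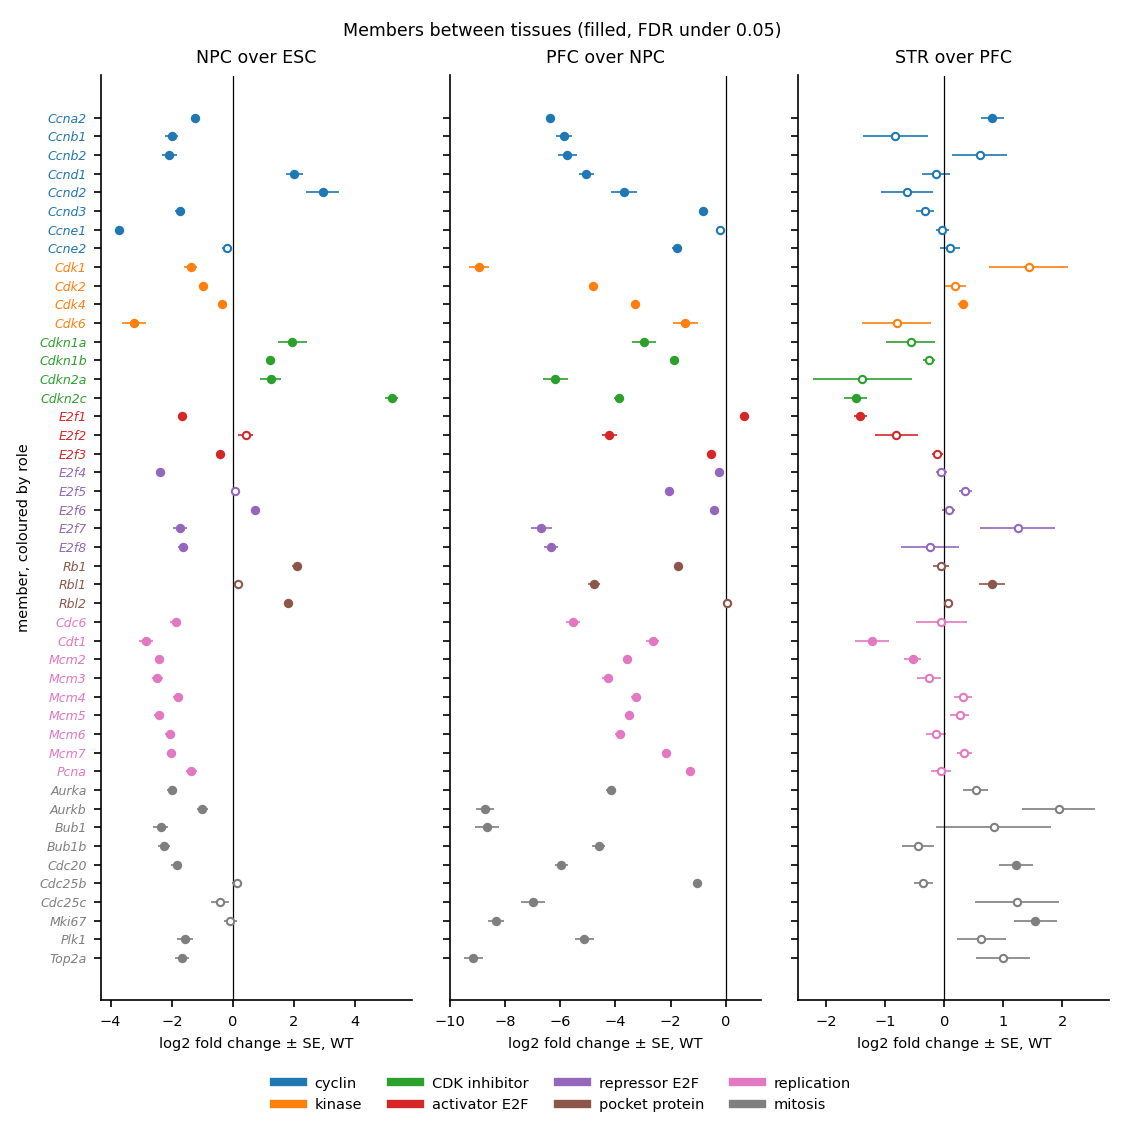
Log2 fold change (± SE) of each member between WT tissues, by role, in the fit of all 11 WT samples. Filled points have an FDR under 0.05. Replication genes are to the left of 0 in the first 2 panels, CDK inhibitors are to the right in the first and to the left in the second, and most points of the third panel are open.

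Adult PFC was then compared with NPCs. In PFC 43 of 46 members were lower and 1 was higher, where 35.7% of all genes fell and 39.5% rose in the edgeR test (75.2% in either direction, and 76.8% at an unadjusted p under 0.05). Samples of both tissues did not overlap for 44 members (95.7%), against 78.1% of genes, 43 of them being lower in PFC, against 36.8% of genes. The median log2 fold change was -3.86 over the members and 0.07 over all genes. Scaling by total counts in place of TMM moved the median of all genes by 0.34 on the log2 scale, and 40 members then fell and 2 rose. In bulk tissue fewer cells of a type and less RNA per cell cannot be told apart. Nor can tissue be told apart from other differences between the cultured and the brain libraries. The share of alignments that were not unique, for example, was 33.2% to 34.3% in NPCs and 7.62% to 8.90% in PFC.

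Mitosis genes fell most. *Top2a*, the topoisomerase that untangles chromosomes, had 470 to 602 CPM in WT NPCs and 0.31, 0.70 and 1.65 CPM in WT PFC (log2 fold change -9.15, SE 0.34, FDR 1.9e-09 in the edgeR test). *Mki67* had 316 to 490 CPM against 0.78, 1.10 and 1.48 CPM (log2 fold change -8.34, SE 0.30). *Cdk1*, the kinase that drives entry into mitosis, had 121 to 155 CPM in WT NPCs and 0, 0.26 and 0.63 CPM in WT PFC. *Aurkb* and *Bub1* also fell by over 8 log2 units (log2 fold changes -8.72 and -8.66). Over the 6 PFC samples of both genotypes *Cdk1* had 11 reads in all, *Bub1* 7 and *Aurkb* 12, so their levels in brain rest on single reads. Among the further lists 40 of 42 mitosis genes and 39 of 40 replication and E2F target genes fell and none of either rose, while 5 of 24 partners and inhibitors rose and 15 fell. *Uhrf1*, which maintains DNA methylation behind the fork, went from 113 to 0.749 CPM (log2 fold change -7.18) and *Ube2c*, the ubiquitin-conjugating enzyme of the anaphase-promoting complex, from 76.3 to 0.228 CPM (log2 fold change -8.36).

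The replication genes fell less in the median than the mitosis genes. Log2 fold changes of the 9 replication members ranged from -5.54 (*Cdc6*) to -1.28 (*Pcna*), with a median of -3.49, and those of the 10 mitosis members from -9.15 to -1.04 (*Cdc25b*), with a median of -6.48. *Pcna*, which also serves DNA repair, stayed at 25.2, 32.5 and 37.5 CPM in WT PFC, against 66.4 to 83.1 CPM in WT NPCs. *Mcm7* stayed at 17.1 to 22.1 CPM. Its exons overlap those of *Ap4m1* and *Cops6* on the other strand, and the strand setting of the brain counts is not given in the sources used here.

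The E2F family divided into genes that were nearly off in brain and genes that were not. In RPKM (CPM divided by gene length in kilobases), *E2f4* was highest of the 8 in WT ESCs at 107 ± 2.67 (SD, n = 2) and *E2f5* was second at 36.1 ± 3.83. In WT NPCs *E2f5* was first at 39.3 ± 1.45 (SD, n = 3) and *E2f4* second at 21.1 ± 2.05. In WT PFC *E2f4* stood at 18.1 ± 1.27 RPKM, *E2f1* at 13.7 ± 0.700, *E2f5* at 9.51 ± 0.546, *E2f3* at 9.31 ± 1.01 and *E2f6* at 8.85 ± 0.459 (SD, n = 3), the last 3 within overlapping SDs. *E2f2*, *E2f7* and *E2f8* were at 0.295 RPKM or less in WT PFC. In CPM, *E2f7* had 16.4 to 24.7 in WT NPCs and 0 to 0.31 in WT PFC, and *E2f8* had 31.6 to 36.6 and 0.31 to 0.52, with log2 fold changes of -6.68 and -6.34. *E2f1* was the one member that rose, from 24.4, 31.3 and 26.2 CPM in WT NPCs to 41.3, 42.9 and 45.6 CPM in WT PFC (log2 fold change 0.65, SE 0.11, FDR 0.00025 in the edgeR test), still below the 81.8 and 87.2 CPM of WT ESCs. The gene lies on the minus strand at chr2:154559407-154569892 (GRCm38). *E2f4* moved little (log2 fold change -0.24, FDR 0.035), was positive instead under total count scaling (0.09, FDR 0.41) and in the KO samples (0.13, FDR 0.37), and did not pass the edgeR test without NPC library 1 (FDR 0.065), NPC library 2 (0.13), PFC library 2 (0.12) or PFC library 3 (0.11). *Rbl2*, the pocket protein p130 known from resting cells, did not pass with TMM (0.06, SE 0.08), having 66.0 to 66.5 CPM in WT NPCs and 66.1 to 74.6 CPM in WT PFC, and rose with total count scaling (0.40). Nor did *Ccne1* pass (-0.19, SE 0.11).

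**Figure D4:**
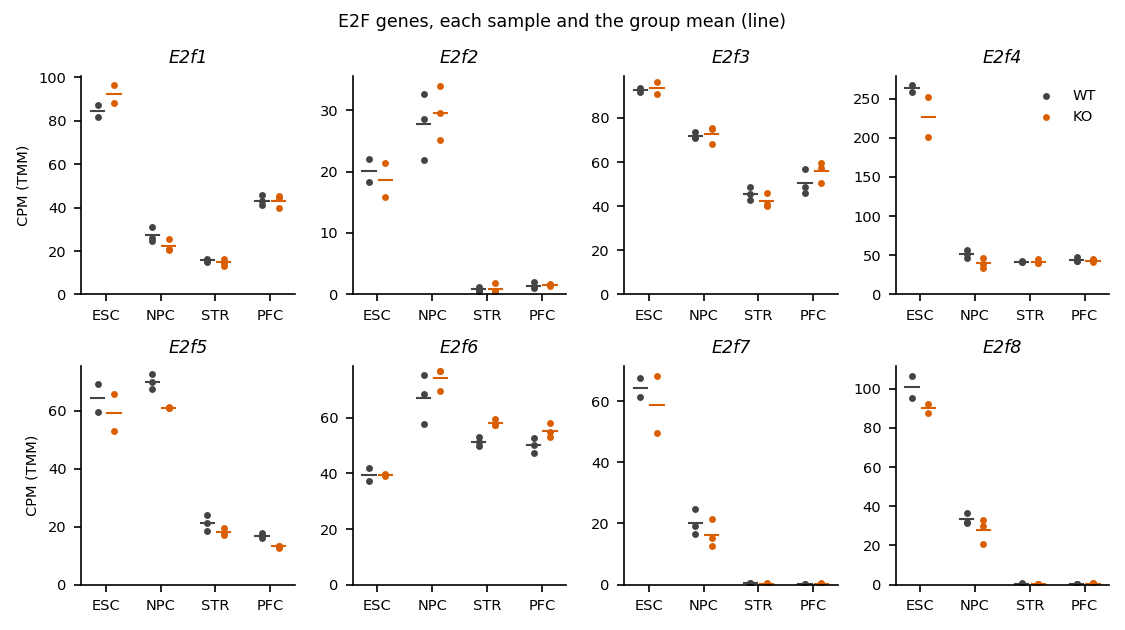
CPM of *E2f1* to *E2f8* in every sample of the 4 tissues, WT in grey and KO in orange, with a line at each group mean. *E2f2*, *E2f7* and *E2f8* are at most 2.01 CPM in all brain samples, *E2f1* is higher in PFC than in NPCs, and *E2f5* in KO samples lies below WT in PFC and NPCs.

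The promoters of members were examined for the sequences that E2F and DREAM or MuvB complexes are known to bind. RefSeq promoters on GRCm38.p6, from 250 bases before to 50 bases after a gene's start, were found for 36 of the 46 members. Some genes had several promoters (32851 promoters for 27025 genes), and a motif in any of them was counted for the gene. The E2F motif was searched as the letters TTT, then 2 bases that are each C or G, then CGC, the cell cycle homology region (CHR) of mitotic genes as TTTGAA, and the NFY site as CCAAT, each on both strands. A match is a description of these letters and not evidence of binding. The E2F motif was present in 13 of 36 members (36.1%) and in 2.605% of 27025 genes with a promoter. It was in 6 of 8 replication members (*Mcm3*, *Mcm5*, *Mcm6*, *Mcm7*, *Cdc6* and *Cdt1*) and in 0 of 8 mitosis members with a promoter. The CHR motif was present in 13 of 36 members (36.1%) and in 20.2% of genes, in 6 of 8 mitosis members and 1 of 8 replication members. CCAAT was in 26 of 36 members (72.2%) and in 41.1% of genes, among them all 8 mitosis members. *Cdk1* and *E2f3* had both the E2F and the CHR letters in the same promoter. *E2f2* had them in separate promoters, E2F in chr4:136172024-136172323 and CHR in chr4:136180532-136180831. Of all 534 tested genes with the E2F motif, 49.1% fell and 27.0% rose from ESCs to NPCs, against 39.2% and 34.1% of the 11936 without it. From NPCs to PFC 48.9% of them fell, against 34.8%. For the CHR motif the shares that fell were 45.0% with and 38.7% without it from ESCs to NPCs, and 35.3% and 35.4% from NPCs to PFC. Between genotypes 0 of 498 genes with the E2F motif were called by edgeR in ESCs, 0 of 493 in NPCs, 0 of 497 in STR and 1 of 495 in PFC. Without it 0 of 10297, 1 of 9883 and 0 of 10890 were called, and in PFC 18 rose and 55 fell of 10793. No gene of any kind was called in ESCs and STR, so the counts of 0 there do not bear on the motif. In the same order 56.0%, 56.4%, 46.9% and 52.5% of genes with the motif were negative in KO, against 47.1%, 48.8%, 49.6% and 56.5% of genes without it. No test of the difference between these shares was made.

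Shown here are 3 promoters with the E2F motif, of a replication gene each from the helicase and its loader and of a pocket protein, 1 with both motifs and 2 of mitotic genes with the CHR motif. They run 5′ to 3′ on the strand of the gene, and capitals mark matches to the E2F or CHR letters on either strand.
*Mcm3* promoter, chr1:20820263-20820562, minus strand: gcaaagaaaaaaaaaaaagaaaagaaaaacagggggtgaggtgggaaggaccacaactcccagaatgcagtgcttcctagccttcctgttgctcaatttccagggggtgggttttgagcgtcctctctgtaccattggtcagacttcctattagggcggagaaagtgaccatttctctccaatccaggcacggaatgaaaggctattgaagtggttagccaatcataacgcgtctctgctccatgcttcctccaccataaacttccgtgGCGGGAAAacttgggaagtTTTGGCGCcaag
*Cdc6* promoter, chr11:98907901-98908200, plus strand: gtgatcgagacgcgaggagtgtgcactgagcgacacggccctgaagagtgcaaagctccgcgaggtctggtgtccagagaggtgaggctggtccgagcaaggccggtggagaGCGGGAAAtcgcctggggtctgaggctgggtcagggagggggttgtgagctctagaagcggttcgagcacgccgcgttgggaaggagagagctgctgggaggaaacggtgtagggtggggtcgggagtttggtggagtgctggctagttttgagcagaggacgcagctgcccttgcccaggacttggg
*Rbl1* promoter, chr2:157204485-157204784, minus strand: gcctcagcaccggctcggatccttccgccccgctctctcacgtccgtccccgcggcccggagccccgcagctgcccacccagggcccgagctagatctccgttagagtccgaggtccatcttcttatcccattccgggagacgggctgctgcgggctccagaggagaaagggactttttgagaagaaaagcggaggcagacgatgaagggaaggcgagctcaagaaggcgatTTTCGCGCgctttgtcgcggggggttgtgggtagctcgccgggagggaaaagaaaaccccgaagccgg
*Cdk1* promoter, chr10:69352863-69353162, minus strand: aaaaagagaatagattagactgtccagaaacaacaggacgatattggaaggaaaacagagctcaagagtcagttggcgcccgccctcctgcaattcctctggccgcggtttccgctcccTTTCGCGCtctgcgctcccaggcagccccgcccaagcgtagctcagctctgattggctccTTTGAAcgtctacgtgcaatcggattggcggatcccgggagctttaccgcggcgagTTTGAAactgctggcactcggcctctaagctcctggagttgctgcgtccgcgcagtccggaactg
*Ccnb2* promoter, chr9:70421505-70421804, minus strand: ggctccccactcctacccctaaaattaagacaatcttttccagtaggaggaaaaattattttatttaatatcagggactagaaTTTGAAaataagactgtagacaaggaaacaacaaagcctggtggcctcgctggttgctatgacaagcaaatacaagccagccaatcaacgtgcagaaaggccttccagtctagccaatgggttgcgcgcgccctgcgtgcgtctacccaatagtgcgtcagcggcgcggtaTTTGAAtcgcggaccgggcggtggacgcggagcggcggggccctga
*Plk1* promoter, chr7:122159185-122159484, plus strand: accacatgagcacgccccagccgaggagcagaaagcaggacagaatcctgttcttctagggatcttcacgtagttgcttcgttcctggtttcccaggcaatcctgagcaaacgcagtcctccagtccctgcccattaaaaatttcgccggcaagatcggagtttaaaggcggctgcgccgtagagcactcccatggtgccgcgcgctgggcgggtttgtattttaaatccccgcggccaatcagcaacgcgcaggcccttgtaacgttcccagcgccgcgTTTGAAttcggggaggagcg
Matches in *Mcm3* began 20 and 39 bases after the RefSeq start, in *Cdc6* 138 bases and in *Rbl1* 18 bases before it. For *Cdc6* the annotation used here for gene positions (GENCODE M21) begins the gene at chr11:98907801, before the whole window shown. In *Cdk1* the E2F match began 131 bases before the start and the CHR matches 71 and 15 bases before it. Those of *Ccnb2* began 167 bases before and 5 bases after, and that of *Plk1* 31 bases after the start. All 6 genes fell between WT NPCs and WT PFC. Between ESCs and NPCs *Rbl1* was not called (0.17, SE 0.17) while the other 5 fell.

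The 2 brain regions were compared with each other in the same fit. From PFC to STR 5 members rose and 4 fell in the edgeR test (19.6%), where 6.79% of all genes rose and 5.51% fell (12.3% in either direction). There were 15 members (32.6%) at an unadjusted p under 0.05, against 24.4% of genes, and samples of both regions did not overlap for 17 members (37.0%), against 37.2% of genes. The median log2 fold change was -0.04 over the members and 0.02 over all genes. *Cdkn2c* had 5.17, 5.67 and 6.43 CPM in WT PFC and 2.00, 2.44 and 1.44 CPM in WT STR (log2 fold change -1.50, SE 0.19, FDR 0.00060). *E2f1* had 41.3 to 45.6 CPM against 15.1 to 16.5 CPM (log2 fold change -1.42, SE 0.11, FDR 3.1e-05). *Cdkn2c* and *E2f1* were called with each library left out, with KO samples in place of WT, and under each of the other settings run. *Mki67* (1.55), *Cdc20* (1.21), *Ccna2* (0.82), *Rbl1* (0.81) and *Cdk4* (0.32) rose on the log2 scale, and *Cdt1* (-1.22) and *Mcm2* (-0.53) fell, *Mki67* from 0.78 to 1.48 CPM up to 2.44 to 3.997 CPM. With a library left out, edgeR's fits called 4, 4 and 3 members without WT STR library 1, 2 or 3, and 3, 6 and 7 without WT PFC library 1, 2 or 3. Calls over all genes fell in the same fits too, from 2174 to between 1234 and 1552. With only these regions fitted 11 of 35 members passed, among them *Ccnd2* (-0.64) and *Ccnd3* (-0.34), and 3791 of 15555 genes. The 8 NPC markers summed to 275 to 296 CPM in WT STR and 193 to 224 CPM in WT PFC, and 4 cortical markers to 333 to 492 CPM and 754 to 964 CPM. Their part in these differences was not tested.

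In ESCs, KO was compared with WT to ask whether loss of *Phf8* moved cell cycle genes in pluripotent cells. No member was called in the fit of genotype alone, which did not call the deleted *Phf8* either. The spread shared by all genes between samples of a genotype was 31.4% in that fit. It was 4.37% in a fit that also took the replicate numbers as a block. There 3 members (*E2f4*, *Cdk6* and *Cdk1*) and 513 of 15080 genes passed, with 1 residual degree of freedom. By edgeR's quasi-likelihood test 0 of 46 members were called, as for 0% of the 15080 genes tested, and 0 were called by DESeq2 (3 genes) or by edgeR's exact test (1 gene). At an unadjusted p under 0.05 there was 1 member, *Cdk6*, where 1.13% of all genes reached that level. Fold changes were positive for 17 and negative for 29 members, with a median of -0.03 on the log2 scale against 0.01 over all genes. In the further lists 29 of 40 replication and E2F target genes and 35 of 42 mitosis genes were negative and 16 of 24 partners and inhibitors positive, with 0 called. For *Mki67* and *Mcm3* the libraries numbered 1 and 2 lay farther apart than the genotype means. *Mki67* had 443 and 334 CPM in WT and 423 and 294 CPM in KO ESCs (log2 fold change -0.13, 95% interval -0.69 to 0.44). *Mcm3* had 703 and 638 CPM in WT and 775 and 591 CPM in KO ESCs. *Cdk6* had 25.6 and 25.1 CPM in WT and 32.9 and 33.9 CPM in KO ESCs, with no overlap (log2 fold change 0.40, SE 0.12, unadjusted p = 0.0274, FDR 1.0 in the edgeR test). *E2f4* had 268 and 259 CPM in WT and 252 and 201 CPM in KO ESCs, again without overlap (log2 fold change -0.23, 95% interval -0.51 to 0.06). *E2f1* had 87.2 and 81.8 CPM in WT and 96.7 and 88.1 CPM in KO ESCs (log2 fold change 0.12, 95% interval -0.09 to 0.34). In all, 6 members did not overlap between genotypes (13.0%), against 20.8% of all genes tested, 3 of them higher in KO (11.3% of genes) and 3 lower (9.44% of genes). *Ccnd2*, *Cdkn1a* and *Cdkn2a*, the members that differed most between libraries 1 and 2, had 95% intervals of -3.42 to 3.61, -2.78 to 3.03 and -2.67 to 2.66 log2 units in this fit, which does not use the replicate numbers.

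In NPCs no member passed in the fit of genotype alone either, but most leaned lower in KO. The edgeR test called 0 of 46 members, where it called 0.00697% of 14351 genes, and DESeq2 and the exact test called 0 as well. At an unadjusted p under 0.05 there were 3 members (6.52%), against 3.03% of all genes. Fold changes were negative for 36 of 46 members, among them all 9 replication genes and all 10 mitosis genes, with a median of -0.15 on the log2 scale against 0.003 over all genes. In the further lists 42 of 42 mitosis genes (median -0.18) and 36 of 40 replication and E2F target genes (median -0.12) were negative, and 0 of either list passed. These lists were read in the same libraries as the members and chosen with earlier results of these data known. They are therefore no separate evidence.

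The 3 members at an unadjusted p under 0.05 did not overlap between genotypes. *E2f5* had 72.5, 67.4 and 70.0 CPM in WT and 61.3, 60.8 and 61.1 CPM in KO NPCs (log2 fold change -0.19, SE 0.07, unadjusted p = 0.0261, FDR 1.0 in the edgeR test). *E2f4* (ENSMUSG00000014859, plus strand, chr8:105297663-105305370 on GRCm38) had 51.6, 57.0 and 46.9 CPM in WT and 33.7, 46.2 and 38.6 CPM in KO (log2 fold change -0.39, SE 0.14, unadjusted p = 0.0313, FDR 1.0 in the same test). *Cdkn2a* was higher, with 41.2, 36.7 and 37.4 CPM in WT and 43.7, 49.1 and 66.4 CPM in KO (log2 fold change 0.47, SE 0.16, unadjusted p = 0.026, FDR 1.0). Groups without overlap were thus 3 of 46 members (6.52%), against 8.27% of all genes, with 1 higher in KO (3.55% of genes) and 2 lower (4.72% of genes). *E2f1* had 24.4, 31.3 and 26.2 CPM in WT and 20.8, 25.5 and 20.7 CPM in KO. Its log2 fold change was -0.29 (95% interval -0.64 to 0.07) in this fit, which does not use the replicate numbers.

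Replicate numbers are shared between the genotypes, and NPC samples with the same number deviated together, so each KO sample was also set beside the WT sample of its number. Of 46 members 22 (47.8%) were lower in KO in all 3 pairs, against 18.1% of all genes, and 5 (10.9%) were higher in all 3, against 16.4%. The 22 included 9 of 10 mitosis members and 5 of 9 replication members. *Mcm6* had 142, 197 and 166 CPM in WT and 116, 160 and 136 CPM in KO, for log2 ratios of -0.29, -0.30 and -0.29. *Plk1*, a kinase of mitotic entry, had ratios of -0.37, -0.26 and -0.24 and *Aurka*, a spindle pole kinase, of -0.46, -0.26 and -0.31. *Mki67* had ratios of -0.32, -0.07 and -0.15, and *E2f1* of -0.23, -0.29 and -0.34. The 5 members higher in all 3 pairs were *Ccnd1*, *Cdkn2a*, *E2f2*, *E2f6* and *Rb1*. When edgeR's quasi-likelihood fit took replicate numbers as a block, again 0 of 46 members were called (0.0209% of all genes), and the lowest member FDR was 0.33 (*Mcm6*). At an unadjusted p under 0.05 there were 19 members (41.3%) with the block, 18 of them lower, against 10.5% of all genes. Members rose and fell together between NPC libraries, so these counts, and those of negative members above, are not over independent genes. The shares of all genes cannot gauge them for that reason.

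**Figure D5:**
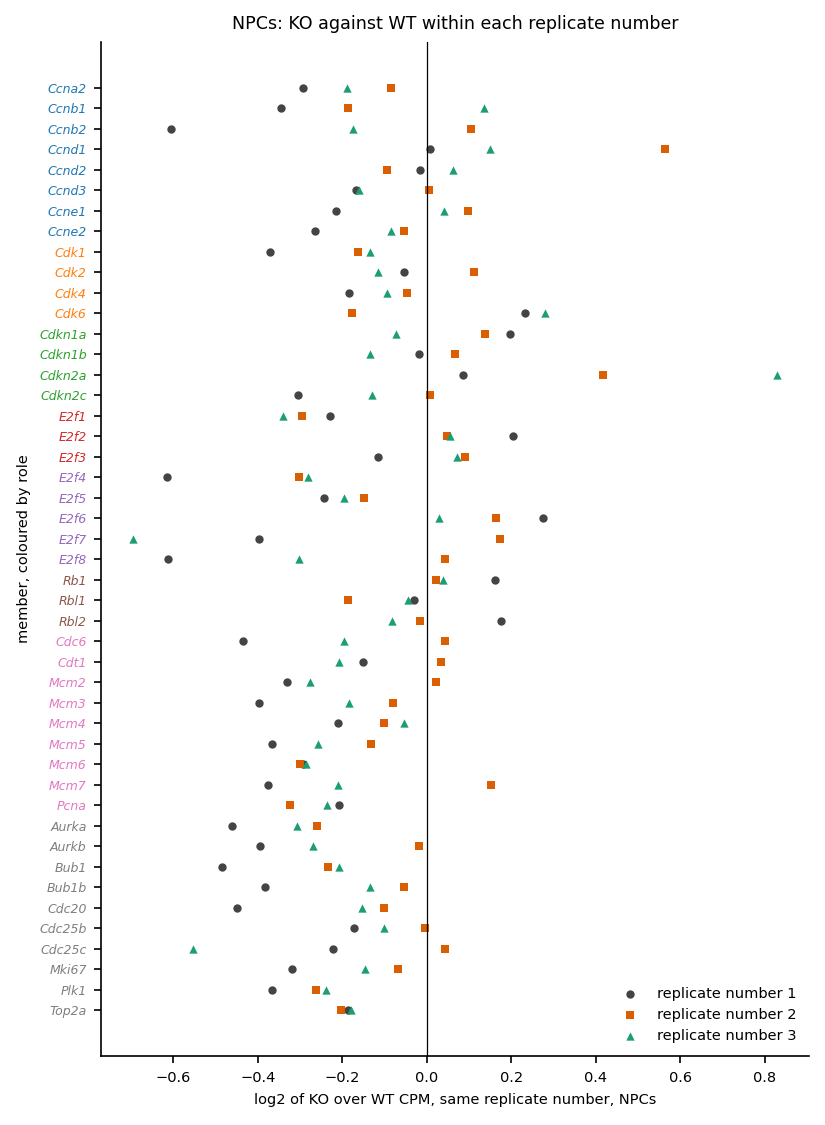
Log2 ratio of KO to WT CPM in NPCs for each member, with 1 point for each replicate number. Points of mitosis genes other than *Cdc25c* lie to the left of 0 in all 3 pairs, with those of replicate number 1 often farthest left, and *Cdkn2a* lies to the right in all 3.

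The libraries numbered 2 also differed from the others in these genes. In both genotypes library 2 was highest of the 3 for 29 members and lowest for 6. *Mki67* was at 490 and 467 CPM in the WT and KO libraries numbered 2 and at 253 to 331 CPM in the other 4, and *Ccnd2* was at 775 and 726 CPM against 1225 to 1505 CPM. The 4 oligodendrocyte markers summed to 1955 and 2359 CPM in WT and KO of pair 1, to 39.8 and 168 CPM in pair 2 and to 1673 and 1364 CPM in pair 3, and 3 astrocyte markers to 151 to 1543 CPM in WT and 763 to 1956 CPM in KO. Their part in the lower levels of KO samples was not tested. The members' median log2 fold change depended on single libraries, being -0.06 without WT library 2, -0.04 without KO library 1 and -0.30 without KO library 2, and 0 members passed in each of these edgeR fits. The number of negative members was 30 to 38 with any 1 library left out. No difference of the genotype effect between NPCs and ESCs was detected. The interaction called 0 of 46 members in edgeR's quasi-likelihood test and 0 in DESeq2, with 0 at an unadjusted p under 0.05, where 0% and 1.49% of all genes tested did so. Its fold changes were negative for 32 of 46 members, among them all 9 replication and all 10 mitosis genes. Their median was -0.08 against -0.002 over all genes, and lay between -0.27 and 0.007 with a library left out. These members too are not independent genes. With the replicate block the interaction again called 0, and 7 of 46 members and 1049 of 16612 genes were at an unadjusted p under 0.05.

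In the brain the same comparison covered 35 of 46 members in each region, the rest having too few reads. Not tested in either region were *Ccnb1*, *Cdk1*, *Cdk6*, *Cdkn2a*, *E2f7*, *E2f8*, *Aurkb*, *Bub1*, *Cdc6* and *Cdc25c*, with *E2f2* in STR and *Top2a* in PFC. Calls by edgeR's quasi-likelihood test were 0 of 35 in STR (0% of all genes) and 0 of 35 in PFC (0.638% of all genes). DESeq2 called 0 members in both regions, where it called 53 genes in STR and 196 in PFC. The exact test called 0 members and 93 of 15476 genes in STR, and 1 member and 376 of 15364 genes in PFC. At an unadjusted p under 0.05 there were 4 members in STR (11.4%, against 8.7% of all genes) and 5 in PFC (14.3%, against 11.2%). In STR these were *Pcna* (-0.43), *Mcm4* (0.29), *E2f6* (0.18) and *Rbl2* (0.21 on the log2 scale). In PFC they were *Ccnd1* (0.43), *E2f5* (-0.37), *Ccnb2* (0.87), *Cdkn2c* (-0.46) and *Ccnd3* (-0.23). Members without overlap between genotypes were 4 in STR (11.4%, against 13.1% of all genes), 3 of them higher in KO and 1 lower, against 6.84% and 6.31% of genes. In PFC they were 8 (22.9%, against 17.1%), 3 of them higher and 5 lower, against 8.69% and 8.42%. Without KO STR library 1, which held the hypothalamic markers, 0 of 35 members and 0 of 15684 genes passed the edgeR test. There 3 of the members and 783 of the genes were at an unadjusted p under 0.05. All 4 cortical markers were negative in KO against WT STR (median -0.57, 0 called), and their part in the STR values was not tested.

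*Ccnd1* in PFC (ENSMUSG00000070348, minus strand, chr7:144929931-144939925 on GRCm38) came nearest to the threshold. It had 43.5, 58.2 and 40.8 CPM in WT and 62.7, 64.1 and 68.3 CPM in KO PFC, every KO sample above every WT sample (log2 fold change 0.43, SE 0.12, FDR 0.15 in the edgeR test). It passed in the exact test (FDR 0.037), without a filter on low counts (FDR 0.020) and without WT library 2 (log2 fold change 0.62, FDR 0.036). The other-strand gene whose exons it overlaps is *LTO1*. *Pcna* in STR had 24.0, 32.9 and 31.9 CPM in WT and 23.9, 19.9 and 21.7 CPM in KO (FDR 0.445 in the edgeR test). Of the further lists 1 gene passed, *Anln* in PFC, a cytokinesis gene also expressed in oligodendrocytes, with 72.8 CPM in WT and 38.4 CPM in KO on average (log2 fold change -0.94, FDR 0.049). The 4 oligodendrocyte markers summed to 1066 to 1441 CPM in WT PFC and 923 to 971 CPM in KO PFC. The 3 astrocyte markers summed to 338 to 356 CPM in WT and 270.4 to 292 CPM in KO PFC, and the 3 endothelial markers to 163 to 208 CPM and 142 to 186 CPM. All 4 oligodendrocyte, 3 astrocyte and 3 endothelial markers had negative fold changes in PFC, 2, 1 and 0 of them called. Their part in the values of *Anln* and of the PFC members named above was not tested. The interaction of genotype with brain region called 0 of 36 members in edgeR and in DESeq2, with 0 at an unadjusted p under 0.05 (0.00624% and 6.41% of all genes).

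Some members had a fold change of the same sign in each tissue. Of 34 members tested in all 4 tissues, 7 (20.6%) were lower in KO in each, against 10.7% of all genes tested in all 4, and 1 (2.94%) was higher in each, against 8.36%. The 7 were *Ccna2*, *Ccnd3*, *Cdk2*, *Cdkn2c*, *E2f4*, *E2f5* and *Bub1b*, and the 1 was *Ccnd1*. Some of the 7 had few reads in brain, as *Ccna2* with 10 to 29 per PFC sample and *Cdkn2c* with 12 to 21 per STR sample. Members were not independent of one another in NPCs, so the shares of all genes cannot gauge these counts either. Averaged over the 4 tissues in a fit of all 22 samples, a comparison added after the data were seen, 0 of 46 members passed (0.0332% of all genes) in edgeR's quasi-likelihood test and 0 in DESeq2. At an unadjusted p under 0.05 there were 6 members (13.0%, against 6.11% of all genes), namely *E2f5* (-0.22), *Ccna2* (-0.34), *E2f4* (-0.17), *Pcna* (-0.24), *E2f6* (0.12) and *Ccnd1* (0.24 on the log2 scale). *E2f5* (ENSMUSG00000027552, plus strand, chr3:14578641-14606309 on GRCm38), a repressor E2F that works with RBL1 and RBL2, had the lowest FDR of the members, 0.25, and stayed between -0.27 and -0.19 with any 1 of the 22 libraries left out. In STR it had 21.2, 18.6 and 23.9 CPM in WT and 17.1, 19.6 and 17.7 CPM in KO, and in PFC 17.9, 16.9 and 15.99 CPM in WT and 12.8, 13.5 and 13.5 CPM in KO. Groups did not overlap in PFC and NPCs and overlapped in STR and ESCs. The other-strand gene whose exons *E2f5* overlaps is *1810022K09Rik*. *Ccna2* in PFC had 2.20, 2.53 and 1.88 CPM in WT and 1.81, 1.42 and 1.23 CPM in KO.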

How the data were processed

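The data are mouse RNA-seq of WT and *Phf8* KO ESCs, NPCs, ventral striatum and prefrontal cortex, grouped by the sample titles. The deposited files hold counts, not normalized, of reads per Ensembl gene, which the authors obtained by STAR alignment to the mm10/GRCm38 genome and HTSeq. File names of the cultured samples call the counting not stranded. For the brain samples the strand setting is not given in the sources used here. Reads with several alignments were not counted. HTSeq's tally of alignments that were not unique made up 33.2% to 45.5% of all its tallies in cultured cells and 7.62% to 8.90% in brain.

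Names and positions came from GENCODE M21 on GRCm38, matching 37693 of 39179 identifiers and 99.7% of counts. The counts were tested with edgeR 4.0.16 (quasi-likelihood, robust, TMM, filterByExpr with a minimum count of 10) in R 4.3.3, over all genes passing the filter, with an FDR under 0.05 by Benjamini-Hochberg adjustment. Genotypes were compared in a separate fit of each tissue with no replicate block, and tissues in 1 fit of the 11 WT samples. CPM and RPKM were computed here from the counts. Intervals are 95% intervals of edgeR's coefficient. The pipeline was tested on simulated data. The members and gene lists were chosen with earlier results of these data known. All 46 members may be named. In each further list the genes with the lowest adjusted p were named, at most 2 up and 2 down in a comparison.

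Deviations from the genotype means correlated between NPC samples of the same replicate number (r = 0.454, 0.638 and 0.402), so the numbers of the labels were taken to pair NPC samples. Of NPC samples with different numbers, WT 3 with KO 1 (0.246) and WT 1 with KO 3 (0.116) were also positive, and the others negative. In ESCs deviations correlated between same-numbered samples too (r = 0.787), with 2 samples per genotype. In STR and PFC they did not (r from -0.026 to 0.113). No 2 replicates agreed within sampling noise. Alternatives were RLE and total count scaling, no filter, DESeq2 1.42.0, the exact test, a log2 fold change beyond 1, the replicate block, fits of 2 tissues, KO samples in place of WT, and each library left out. Total count scaling and the average over tissues were added after the data were seen.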

Additional observations from a re-analysis of the deposited data

How the results depend on the processing

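Of 46 members, the counts passing in NPCs, in STR, in both interactions and averaged over the 4 tissues were 0 under each alternative run. In ESCs 3 members passed with the replicate block, *E2f4* (log2 fold change -0.23, FDR 0.0015), *Cdk6* (0.40, FDR 0.0077) and *Cdk1* (-0.16, FDR 0.043), where 3.4% of all genes did, and *Ccnd2*, *Cdkn1a* and *Cdkn2a* had SEs of 0.06, 0.07 and 0.14 with it. Same-numbered ESC samples shared a difference (r = 0.787). All 8 fibroblast markers were higher and 35 of 46 members lower in the library numbered 2 in both genotypes. The labels do not say what the numbers stand for, and with 2 samples per genotype that fit has 1 residual degree of freedom. In PFC 1 member, *Ccnd1*, passed without a filter on low counts and in the exact test, and 0 to 1 passed with a library left out. From PFC to STR 5 members passed with a log2 fold change beyond 1 as well, 3 to 7 with a library left out, and 11 of 35 with only these regions fitted. *E2f4* between NPCs and PFC turned to 0.093 under total count scaling and to 0.13 in the KO samples. Their causes were not tested. The replicate block changed no call in NPCs, and 19 members reached an unadjusted p under 0.05 with it. From NPCs to PFC 42 to 44 members passed under alternatives other than a log2 fold change beyond 1 (39), and from ESCs to NPCs 38 or 39, or 35 with that threshold. Of the levels by tissue and sample, the sum of the members in WT NPCs was 7689 CPM with TMM and 6808 CPM by total counts. Depth limits the brain values of members with a few reads, and in ESCs the spread between libraries 1 and 2 limits the comparison.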
